A study of Homo sapiens with 8 samples.

Results

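The genes described here are the secreted and membrane-bound cues that steer growing axons, and the receptors that read them. The set holds EPH receptors and ephrins, semaphorins of classes 3 to 7 with plexins and neuropilins, SLITs with ROBO receptors, and netrins with UNC5 receptors, DCC and neogenin (NEO1). Members were taken by gene symbol, which gave 72 of the 23368 symbols in the count table, 37 of them ligands and 35 receptors. RNA was measured by stranded RNA sequencing in HEK293F, a line derived from human embryonic kidney cells and grown in serum-containing medium. In the 3 overexpression libraries the cells had received 1 transfection of a myc-tagged MOV10 plasmid. In the 2 knockdown libraries (replicates 2 and 3) they had received MOV10 siRNA 3 times, 24 h apart, and in the 3 control libraries an irrelevant siRNA on the same schedule. MOV10 is an RNA helicase that works with Argonaute proteins and FMRP in regulation by microRNAs, and the series asks how total RNA levels follow its amount. No library with an empty plasmid is used here, so the comparison of overexpression with control also holds plasmid against siRNA delivery. Whether the libraries of 1 group stem from separate cultures is not stated, so a p-value here weighs a difference against library-to-library spread alone, and that spread may be technical.

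Guidance cues attract or repel the growth cone, the moving tip of an axon, and outside the nervous system the same genes act in vessel growth, epithelial boundaries and kidney branching. Ephrins are held in the membrane, ephrin-A by a lipid anchor and ephrin-B by a transmembrane segment, and bind EPH receptor tyrosine kinases on the neighbouring cell. Class 3 semaphorins are secreted and mostly need a neuropilin beside a plexin, while most other semaphorins sit in the membrane and bind plexins directly. SLITs are secreted repellents read by ROBO receptors, and netrins attract through DCC and NEO1 and repel through UNC5 receptors.

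Libraries held 12737889 to 32826936 counted reads. Counts per 1000000 reads (CPM), scaled by the trimmed mean of M values, are given in the order of replicates 1, 2 and 3 for overexpression and control and 2 and 3 for knockdown. MOV10 itself had 2970, 2920 and 2450 CPM in overexpression libraries, 50.6 and 55.5 CPM in knockdown libraries and 76.8, 76.4 and 91.2 CPM in control libraries, with no overlap between groups. Its log2 fold change over control was 5.10 ± 0.08 with overexpression and -0.62 ± 0.08 with knockdown (± SE here and below, edgeR adjusted p = 2.1e-21 and 8.84e-06). All 8 markers listed for the HEK293 line averaged at least 1 CPM, as did 1 of 9 markers of mature kidney tubule and glomerulus, with UMOD and AQP2 among those at 0 in every library. All 6 mature neuron markers also reached 1 CPM, summing to 57 to 60.9 CPM in overexpression, 48.4 to 48.6 CPM in knockdown and 54 to 56.5 CPM in control libraries, and fibroblast markers (4 of 7 at 1 CPM) summed to 68.2 to 76, 51.5 to 53.5 and 66.4 to 71.7 CPM in the same order of groups. Mature kidney markers, nearly all LRP2, summed to 43.9 to 50.8 CPM in overexpression, 34.7 to 40 CPM in knockdown and 30.2 to 31.7 CPM in control libraries. The HEK293 markers summed to 1260 to 1320, 1630 to 1700 and 1400 to 1430 CPM in the same order, without overlap. Single markers moved within these sums, with SNAP25 of the neuron list higher with overexpression by 2.05 ± 0.16 on the log2 scale, SYN1 lower (-0.73 ± 0.21), and COL3A1, DCN, LUM and PDGFRA of the fibroblast list higher by 1.17 ± 0.23, 1.24 ± 0.41, 0.78 ± 0.13 and 0.68 ± 0.13, while the abundant COL1A1 stood at -0.05 ± 0.06. RBFOX3 of the neuron list was also higher with overexpression (0.45 ± 0.17). After knockdown SNAP25 was higher as well (1.05 ± 0.20), while SLC17A7 and SYT1 of that list were lower (-0.46 ± 0.17 and -0.29 ± 0.08). After knockdown COL1A1 was lower (-0.53 ± 0.07) and PDGFRA higher (0.49 ± 0.14). In the HEK293 list VIM and CDH2 were higher after knockdown (0.35 ± 0.05 and 0.34 ± 0.06) and PAX2 lower (-0.40 ± 0.13). With overexpression NEFL and KRT18 were lower (-0.46 ± 0.05 and -0.15 ± 0.06) and NEFM higher (0.31 ± 0.10). AQP1, at 0.36 CPM in control, was higher under both treatments (1.31 ± 0.34 and 1.57 ± 0.34). The part of such shifts in the results was not tested, and in bulk RNA fewer cells of a kind and less RNA per cell cannot be told apart.

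HEK293F cells carried RNA of every guidance family, led by SLIT2. Of the 72 members, 65 passed the filter on low counts, 34 ligands and 31 receptors, and the other 7 were near silent over all 8 libraries together. Among these DCC and ROBO4 had 2 reads each, SEMA5A 5, UNC5D 6, NTNG1 10, EPHA1 44 and NTN5 45. On a scale of CPM per kb of exon in control libraries, SLIT2 stood at 45.7, followed by EFNB2 at 19.9, NEO1 at 19.2, EPHA7 at 15.1, PLXNB2 at 14.2 and UNC5B at 14.1. PLXNB3 (0.136), NTN3 (0.247), NTNG2 (0.262), SLIT3 (0.285) and SEMA5B (0.31) were the lowest of those tested. ROBO1, a receptor of SLIT2, stood at 12.4 CPM per kb, and NTN1, a ligand of NEO1 and UNC5B, at 10.8 CPM per kb.

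**Figure D1:**
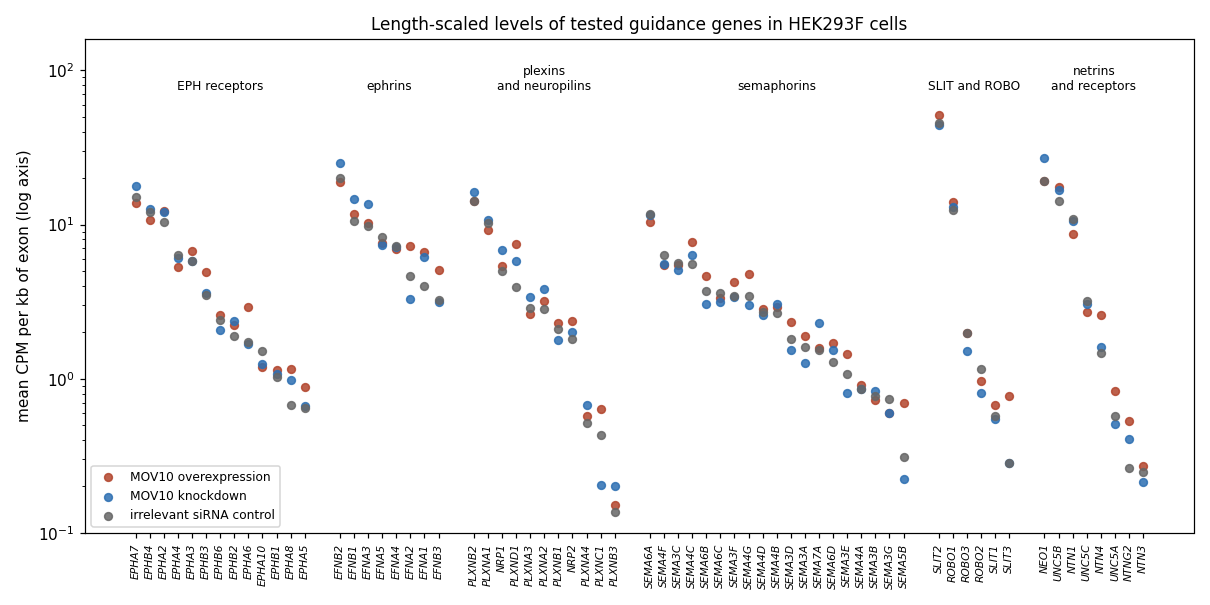
Mean level of each tested guidance gene in CPM per kb of exon (log axis), by family, for MOV10 overexpression (n = 3), MOV10 knockdown (n = 2) and irrelevant siRNA control (n = 3) libraries. Levels in control libraries span 0.136 for PLXNB3 to 45.7 for SLIT2, and the 3 points of most genes lie close together on this scale.

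With MOV10 overexpression, most of the guidance genes that changed were higher. Of the 65 tested, 31 were higher than in control (47.7%, against 25.2% of all 15254 tested genes), 11 were lower (16.9%, against 24.1%) and 23 did not pass the test (called either way were 49.2% of all tested genes), an adjusted p under 0.05 in edgeR's quasi-likelihood fit. Their median log2 fold change was 0.16, beside 0.01 over all tested genes, and the changes were small, with a median size of 0.22 on the log2 scale against 0.2 over all genes. Ligands gave 17 higher and 4 lower of 34, and receptors 14 higher and 7 lower of 31. Of the calls, 20 of the 31 higher and 2 of the 11 lower were also made in each of the 8 fits that left out 1 library. The lower count was 5, 7 and 7 without control replicates 1, 2 and 3 (2964, 3154 and 3279 of all tested genes, against 3671 in the main fit). Scaled by library totals instead, 31 members were higher and 6 lower (4520 and 2997 of all tested genes, against 3837 and 3671 in the main scaling).

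After MOV10 knockdown, 18 guidance genes were higher (27.7%, against 19.9% of all tested genes), 8 were lower (12.3%, against 19.1%) and 39 did not pass the test (39% of all tested genes were called either way), with a median log2 fold change of -0.01 beside 0 over all genes. Receptors gave 11 higher and 4 lower of 31, and ligands 7 higher and 4 lower of 34. The count of lower members was 13 without overexpression replicate 2 and 14 without overexpression replicate 3 (3177 and 3484 of all tested genes, against 2907 in the main fit). Without knockdown replicate 2, which leaves 1 knockdown library, EFNA2, ROBO2, ROBO3, SEMA3A and SEMA3E stood nearer control. Their log2 fold changes were then -0.21, -0.3, -0.3, -0.28 and -0.3, against -0.58, -0.55, -0.39, -0.34 and -0.44 in the main fit. EFNA5 was at -0.19 without that library and -0.18 in the main fit. PLXNC1 stayed at -1.11 to -1.02 in all fits that left out 1 library. Of the 8 lower calls, 1 was made in each fit that left out 1 library, against 11 of the 18 higher. Scaled by library totals instead, 15 members were higher and 13 lower (2353 and 3611 of all tested genes, against 3036 and 2907 in the main scaling). Both comparisons use the same 3 control libraries, so overexpression was also set directly against knockdown. There, 26 members were higher with overexpression (40%, against 29.3% of all tested genes), 14 were lower (21.5%, against 28.1%) and 25 did not pass the test, where 57.4% of all tested genes were called either way. Without knockdown replicate 2, which leaves 1 knockdown library, the direct differences of NTNG2, ROBO2, ROBO3 and SEMA4C were 0.34, 0.05, 0.32 and 0.2. In the main fit these were 0.42, 0.31, 0.41 and 0.28.

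**Figure D2:**
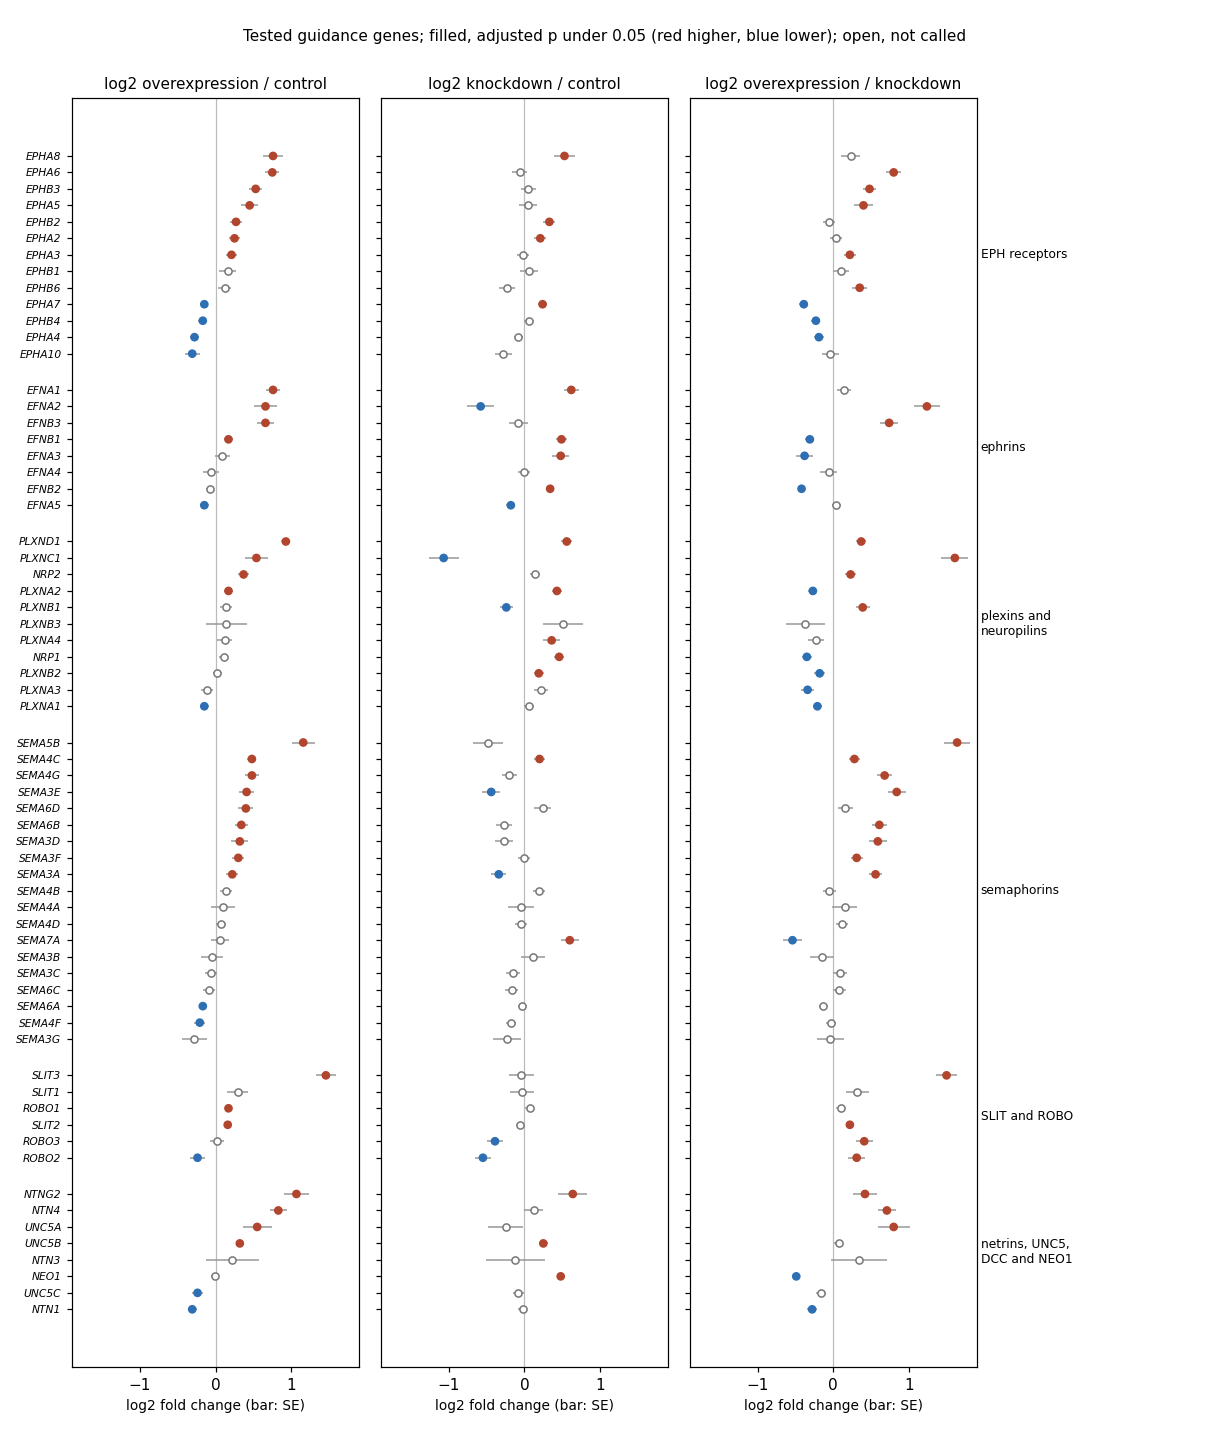
Log2 fold change with its SE (bars) of every tested guidance gene, by family, for overexpression over control, knockdown over control and overexpression over knockdown. Filled points have an adjusted p under 0.05, red above 0 and blue below 0. In the left panel 31 points are filled above 0 and 11 below, in the middle panel 18 and 8, and in the right panel 26 and 14.

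Among the ephrins, 4 of 8 rose and 1 fell with overexpression, and 4 rose and 2 fell after knockdown. The shares were 50% and 12.5% with overexpression (25.2% and 24.1% of all tested genes), and 50% and 25% after knockdown (19.9% and 19.1%). EFNA1, a lipid-anchored ligand of EPHA receptors, had 16.7, 18.5 and 15.6 CPM in overexpression libraries, 15.3 and 15.7 CPM in knockdown libraries and 9.75, 9.89 and 10.8 CPM in control libraries. Every library of both treatments lay above every control library. Its log2 fold change was 0.76 ± 0.09 with overexpression (edgeR adjusted p = 9.19e-07) and 0.62 ± 0.10 after knockdown (edgeR adjusted p = 3.96e-05), and the treatments differed by 0.14 ± 0.09 (edgeR adjusted p = 0.197, 0.0415 with scaling by library totals). EFNA2, another EPHA ligand, had 6.75, 7.61 and 6.37 CPM with overexpression, 2.38 and 3.83 CPM after knockdown and 4.17, 5.02 and 4.01 CPM in control, 3 groups that did not overlap. It was higher with overexpression by 0.66 ± 0.15 (edgeR adjusted p = 0.000919) and lower after knockdown (-0.58 ± 0.18, edgeR adjusted p = 0.0168), and the direct difference was 1.24 ± 0.17 (edgeR adjusted p = 3.71e-06). The knockdown call of EFNA2 was lost without knockdown replicate 2 (adjusted p = 0.52) and without control replicate 2 (0.0868).

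The transmembrane ephrins EFNB1 and EFNB2, ligands of EPHB receptors, were highest after knockdown. EFNB1 had 38.6, 40.5 and 37.5 CPM with overexpression, 48.5 and 48.3 CPM after knockdown and 33.9, 33.7 and 36.3 CPM in control. These groups were ordered without overlap, with knockdown 0.49 ± 0.07 above control (edgeR adjusted p = 7.61e-06) and overexpression 0.17 ± 0.06 above it (edgeR adjusted p = 0.0236). That smaller call was lost without overexpression replicates 1 or 2 or control replicates 1 or 2 (adjusted p = 0.0599, 0.0701, 0.087 and 0.1), and in DESeq2 (0.0543). EFNB2, the partner of the venous receptor EPHB4 in vessel identity, had 95.3, 92.8 and 95 CPM with overexpression, 130 and 123 CPM after knockdown and 103, 97.5 and 98.7 CPM in control. Knockdown stood 0.34 ± 0.05 above control (edgeR adjusted p = 5.08e-05), while overexpression differed from control by -0.08 ± 0.05 (edgeR adjusted p = 0.179). In GENCODE 29, 26.2% of the exon length of EFNB2 overlaps a gene on the other strand, AL138689.2, and the counting's strand setting is not given, so their reads may not be told apart. EFNB3, a further transmembrane ephrin, had 16, 17.2 and 15.5 CPM with overexpression, 8.15 and 12 CPM after knockdown and 9.62, 10.3 and 11.2 CPM in control, with overexpression above all others (0.66 ± 0.11 over control, edgeR adjusted p = 5.74e-05). EFNA5, which guides retinal axons in the mouse, had 43.8, 42.3 and 42.8 CPM with overexpression, 42.1 and 41.7 CPM after knockdown and 49.3, 48.1 and 44.9 CPM in control. Both small decreases passed the test, -0.15 ± 0.06 with overexpression (edgeR adjusted p = 0.0408) and -0.18 ± 0.06 after knockdown (edgeR adjusted p = 0.0268). Neither was stable to the libraries used, since 5 of the 8 left-out fits ended the first call (overexpression replicates 1 and 2, knockdown replicate 3, control replicates 1 and 2, adjusted p = 0.0669, 0.0951, 0.0553, 0.2 and 0.117) and 4 ended the second (both knockdown replicates, control replicates 1 and 2, adjusted p = 0.128, 0.12, 0.125 and 0.0851). DESeq2 called neither EFNA5 difference (adjusted p = 0.063 and 0.0548), and scaling by library totals ended the first (0.128). EFNA3 rose after knockdown by 0.48 ± 0.11 (edgeR adjusted p = 0.00173), and shares a read-through gene, AL691442.1, with its neighbour EFNA4, which did not pass the test in either comparison with control.

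Of the 13 tested EPH receptors, 7 rose and 4 fell with overexpression, and 4 rose and 0 fell after knockdown (edgeR). At an unadjusted p under 0.05, 2 were lower after knockdown, and DESeq2 also called 0. In edgeR the shares were 53.8% and 30.8% with overexpression (25.2% and 24.1% of all tested genes), and 30.8% and 0% after knockdown (19.9% and 19.1%). EPHA6 had 18.3, 16.7 and 19.7 CPM with overexpression, 9.73 and 11.2 CPM after knockdown and 10.4, 10.9 and 11.2 CPM in control, so that the overexpression libraries stood apart from both other groups. It was 0.75 ± 0.09 above control with overexpression (edgeR adjusted p = 1.28e-06), while knockdown differed from control by -0.06 ± 0.10 (edgeR adjusted p = 0.697). EPHB3, a receptor that with EPHB2 positions cells of the intestinal crypt in mice, had 24.2, 23.7 and 19.3 CPM with overexpression, 16 and 16.6 CPM after knockdown and 15.8, 16.4 and 14.9 CPM in control, again with the overexpression libraries apart (0.53 ± 0.09, edgeR adjusted p = 4.19e-05). Knockdown and control overlapped in EPHB3 and differed by 0.05 ± 0.10 (edgeR adjusted p = 0.728).

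EPHA8, EPHB2 and EPHA2 were called higher under both treatments. EPHA8 had 5.67, 6.49 and 6.29 CPM with overexpression, 4.95 and 5.58 CPM after knockdown and 3.64, 3.73 and 3.41 CPM in control, with both treatments wholly above control. Its log2 fold changes were 0.76 ± 0.13 with overexpression and 0.53 ± 0.14 after knockdown (edgeR adjusted p = 5.67e-05 and 0.00497). EPHB2 had 29.7, 29.1 and 25.4 CPM with overexpression, 27.9 and 31.2 CPM after knockdown and 23, 22.1 and 25.4 CPM in control. Overexpression replicate 3 and control replicate 3 met at 25.4 CPM, and the changes were 0.27 ± 0.08 with overexpression (edgeR adjusted p = 0.00689, 0.0528 without overexpression replicate 1) and 0.33 ± 0.08 after knockdown (edgeR adjusted p = 0.00433, 0.0604 without knockdown replicate 3). EPHA2, a receptor common in epithelial and tumour cells, had 51.7, 53 and 48.9 CPM with overexpression, 47.4 and 52.8 CPM after knockdown and 42.1, 39.5 and 48.2 CPM in control, where control replicate 3 overlapped the knockdown libraries. Its changes were 0.25 ± 0.07 with overexpression (edgeR adjusted p = 0.0051, 0.0519 without control replicate 2) and 0.21 ± 0.08 after knockdown (edgeR adjusted p = 0.0324). The knockdown call of EPHA2 was lost without knockdown replicate 3, overexpression replicate 1 or control replicates 1 or 2 (adjusted p = 0.266, 0.0506, 0.101 and 0.174), and when libraries were scaled by their totals (0.1).

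EPHA7, the most abundant EPH receptor per length in control libraries, was called in opposite directions. It had 104, 95 and 107 CPM with overexpression, 135 and 130 CPM after knockdown and 115, 115 and 108 CPM in control, and the groups did not overlap. Overexpression stood at -0.15 ± 0.05 to control (edgeR adjusted p = 0.0252), a call lost without overexpression replicate 2 or control replicates 1 or 2 (adjusted p = 0.137, 0.124 and 0.0951) or with scaling by library totals (0.0865), and knockdown at 0.24 ± 0.06 (edgeR adjusted p = 0.003, 0.0715 without knockdown replicate 2). Set directly against knockdown, overexpression was lower (-0.39 ± 0.06, edgeR adjusted p = 1.17e-05), a call that held without any single library. EPHA4, a receptor of both ephrin classes, fell with overexpression by 0.28 on the log2 scale (± 0.06, edgeR adjusted p = 0.000743) and did not pass the test after knockdown (-0.08 ± 0.06, edgeR adjusted p = 0.326).

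**Figure D3:**
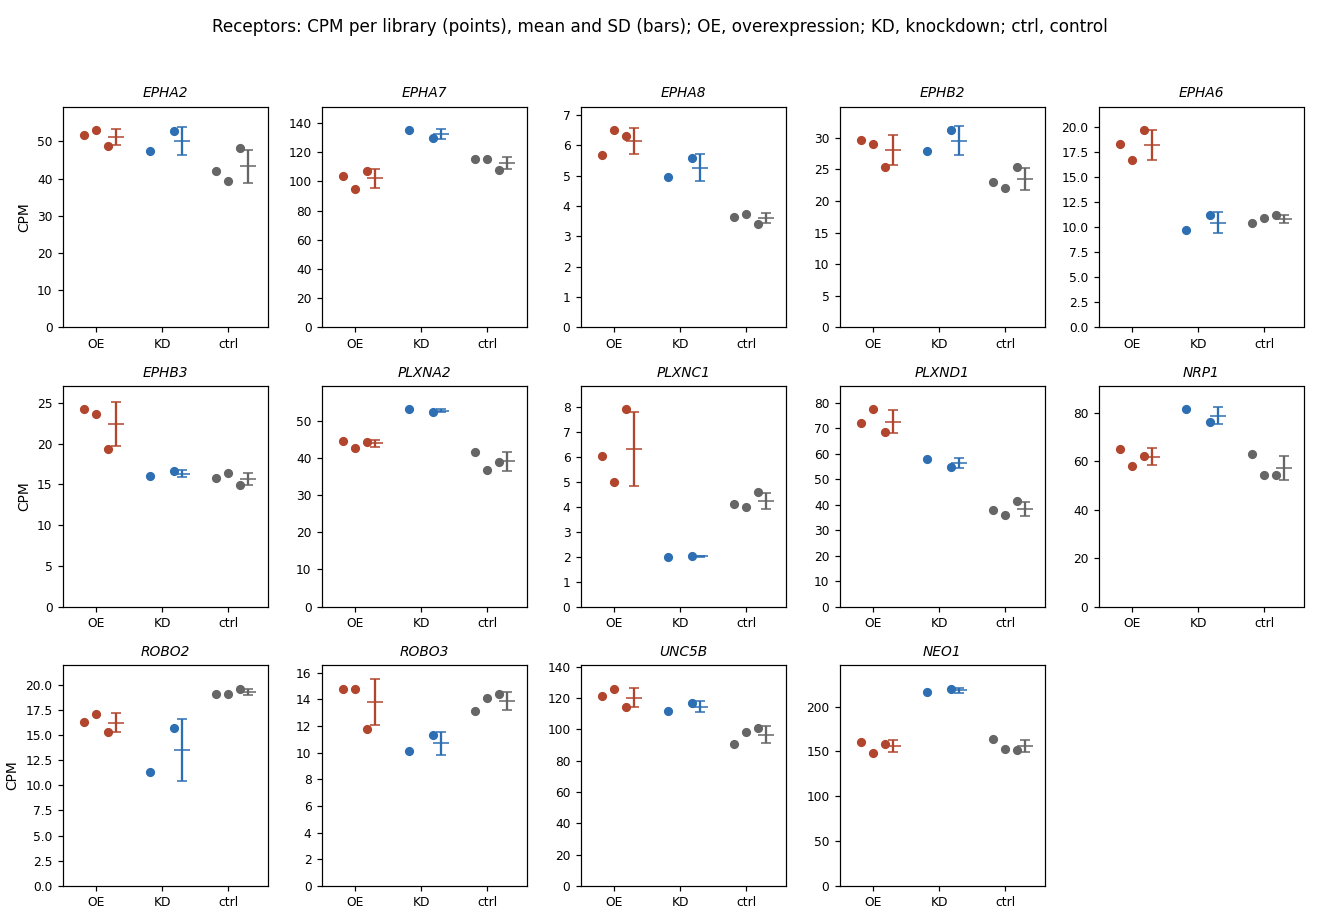
CPM by library (points) with mean and SD (bars) for the receptors picked by the rule in the processing section. Groups are overexpression (OE, n = 3), knockdown (KD, n = 2) and control (ctrl, n = 3). Receptors named outside that rule, such as EPHA4, NRP2 and UNC5A, are not drawn. In PLXND1 both treatments lie above control, in PLXNC1 the knockdown libraries lie lowest at 2 and 2.02 CPM, and in NEO1 they lie highest at 216 and 220 CPM.

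Semaphorins rose with overexpression in 9 of 19 tested genes and fell in 2, and after knockdown 2 rose, 2 fell and 15 did not pass the test. The shares were 47.4% and 10.5% with overexpression (25.2% and 24.1% of all tested genes), and 10.5% each after knockdown (19.9% and 19.1%). SEMA5B, a transmembrane semaphorin that repels axons, had 5.21, 6.76 and 5.91 CPM with overexpression, 1.93 and 1.86 CPM after knockdown and 2.97, 2.49 and 2.47 CPM in control, with overexpression highest, knockdown lowest and no overlap. It was 2.23-fold higher with overexpression (log2 1.16 ± 0.15, edgeR adjusted p = 2.61e-06). After knockdown its difference from control was -0.48 ± 0.20 (edgeR adjusted p = 0.0559), which passed the threshold without overexpression replicates 2 or 3 (0.043 and 0.0459), with scaling by library totals (0.0383), without the count filter (0.0466) and in a fit of these groups alone (0.0409). Overexpression exceeded knockdown in SEMA5B by 1.64 ± 0.17 (edgeR adjusted p = 1.05e-07). SEMA4G, another transmembrane semaphorin, had 24.9, 27.3 and 22.5 CPM with overexpression, 14.1 and 17.6 CPM after knockdown and 18.6, 17.7 and 17.7 CPM in control. It rose by 0.48 ± 0.09 with overexpression (edgeR adjusted p = 0.000135) and differed by -0.20 ± 0.10 after knockdown (edgeR adjusted p = 0.112, 0.0232 without knockdown replicate 3, 0.0499 without overexpression replicate 3 and 0.0412 in a fit of these groups alone). Exons of MRPL43 and AL133215.1 on the other strand overlap 27.4% of the exon length of SEMA4G, so its reads may hold theirs.

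The secreted class 3 semaphorins SEMA3E and SEMA3A were high with overexpression and low after knockdown. SEMA3E, which can bind PLXND1 without a neuropilin, had 11.9, 11 and 13.9 CPM with overexpression, 6.25 and 7.39 CPM after knockdown and 9, 8.8 and 9.55 CPM in control, with no overlap of groups. Its changes were 0.41 ± 0.10 (edgeR adjusted p = 0.00269) and -0.44 ± 0.12 (edgeR adjusted p = 0.00758, 0.192 without knockdown replicate 2), and the direct difference 0.84 ± 0.12 (edgeR adjusted p = 4.21e-06). SEMA3A, the classical growth cone collapsing cue, had 16.9, 17 and 19 CPM with overexpression, 11.5 and 12.4 CPM after knockdown and 14.1, 16.1 and 14.8 CPM in control, likewise separate. Its changes were 0.22 ± 0.08 (edgeR adjusted p = 0.0332) and -0.34 ± 0.10 (edgeR adjusted p = 0.0081), and the direct difference 0.56 ± 0.09 (edgeR adjusted p = 3.77e-05). The first SEMA3A call was lost without overexpression replicate 3 or control replicates 1 or 3 (adjusted p = 0.0857, 0.154 and 0.0844) and in DESeq2 (0.0851), and the second without knockdown replicate 2 or control replicate 2 (0.132 and 0.0538), whereas the direct call held without any single library. SEMA4C, a ligand of PLXNB2, had 47.7, 49.9 and 44.6 CPM with overexpression, 37.2 and 41.3 CPM after knockdown and 34.1, 33.7 and 34.2 CPM in control, a descending order without overlap. SEMA4C was 0.28 ± 0.07 higher with overexpression than after knockdown (edgeR adjusted p = 0.00143), and 0.2 higher without knockdown replicate 2. It rose by 0.48 ± 0.06 with overexpression (edgeR adjusted p = 3.39e-06) and by 0.20 ± 0.07 after knockdown (edgeR adjusted p = 0.0287), the second call being lost without knockdown replicate 3 or any 1 of control replicates 1, 2 and 3 (adjusted p = 0.254, 0.0642, 0.0814 and 0.0673) or with scaling by library totals (0.0945). SEMA7A, a lipid-anchored semaphorin that binds PLXNC1, rose after knockdown by 0.60 ± 0.12 (edgeR adjusted p = 0.000469), to 8.66 and 8.93 CPM against 5.23, 5.75 and 6.61 CPM in control. With overexpression SEMA7A had 6.34, 5.82 and 5.83 CPM and differed from control by 0.06 ± 0.12 (edgeR adjusted p = 0.72). Of the remaining semaphorins called with overexpression, SEMA3D, SEMA3F, SEMA6B and SEMA6D were higher by 0.30 to 0.40 on the log2 scale, and SEMA4F and SEMA6A lower (-0.21 ± 0.07 and -0.17 ± 0.05). Of these 6 calls, those of SEMA3F and SEMA6D held without any single library, and the others were lost without control replicate 1 (SEMA6A and SEMA6B, adjusted p = 0.107 and 0.0585) or control replicate 3 (SEMA3D and SEMA4F, 0.113 and 0.0688), SEMA3D also without overexpression replicate 1 (0.0707).

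**Figure D4:**
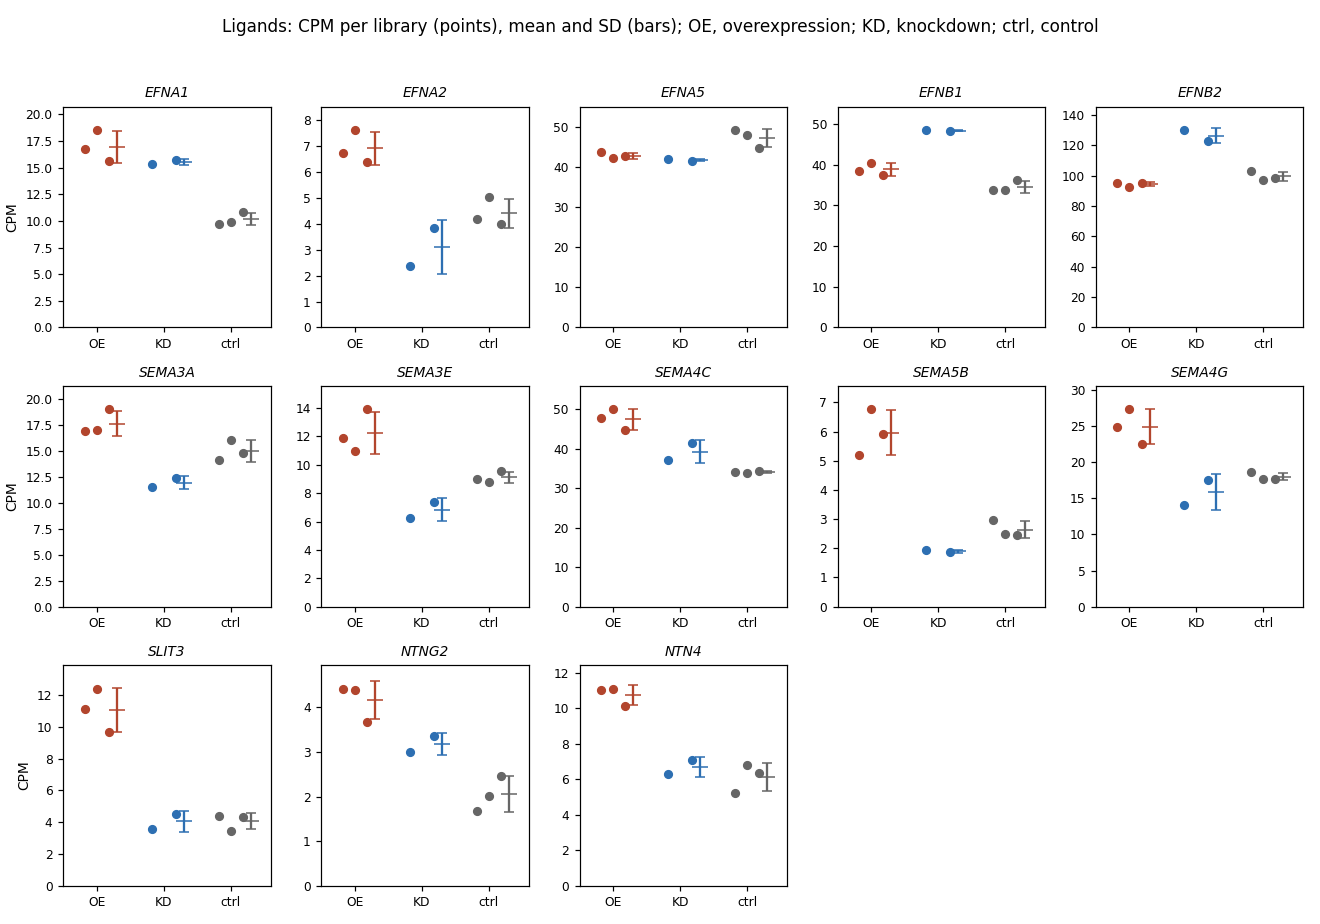
CPM by library (points) with mean and SD (bars) for the ligands picked by the rule in the processing section. Groups are overexpression (OE, n = 3), knockdown (KD, n = 2) and control (ctrl, n = 3). Ligands named outside that rule, such as EFNB3, SEMA7A and SLIT2, are not drawn. SLIT3, NTN4 and SEMA5B show the overexpression libraries apart from both other groups, and EFNB1 and EFNB2 show the knockdown libraries highest.

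Of the 11 plexins and neuropilins, 4 rose and 1 fell with overexpression, and 5 rose and 2 fell after knockdown. The shares were 36.4% and 9.09% with overexpression (25.2% and 24.1% of all tested genes), and 45.5% and 18.2% after knockdown (19.9% and 19.1%). PLXND1, the receptor of SEMA3E and a regulator of vessel patterning, had 71.8, 77.3 and 68.6 CPM with overexpression, 57.8 and 54.9 CPM after knockdown and 37.8, 36 and 41.3 CPM in control. The groups were well separated, and PLXND1 was 1.9-fold above control with overexpression (log2 0.93 ± 0.06, edgeR adjusted p = 7.33e-10) and 0.56 ± 0.07 above it after knockdown (edgeR adjusted p = 2.81e-06). Overexpression in turn exceeded knockdown by 0.37 ± 0.07 (edgeR adjusted p = 9.89e-05). PLXNC1, the SEMA7A receptor, had 6.04, 5.01 and 7.9 CPM with overexpression, 2 and 2.02 CPM after knockdown and 4.12, 3.99 and 4.61 CPM in control, with overexpression highest, knockdown lowest and no overlap. It had 0.477 times the control level after knockdown (log2 -1.07 ± 0.20, edgeR adjusted p = 0.000237) and was higher with overexpression (0.54 ± 0.15, edgeR adjusted p = 0.00501). The direct difference of PLXNC1, 1.61 ± 0.18 (edgeR adjusted p = 3.71e-07), was among the widest of the set, beside those of SEMA5B and SLIT3.

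NRP1, the neuropilin used by SEMA3A and also a VEGF co-receptor, had 65.1, 58 and 62.3 CPM with overexpression, 81.3 and 76.2 CPM after knockdown and 62.8, 54.4 and 54.1 CPM in control. Only its knockdown libraries stood apart, 0.46 ± 0.07 above control (edgeR adjusted p = 2.75e-05), and overexpression differed from control by 0.11 ± 0.06 (edgeR adjusted p = 0.172, 0.0489 without overexpression replicate 2 and 0.0351 without control replicate 1). NRP2, the neuropilin of SEMA3F, was higher with overexpression (0.37 ± 0.07, edgeR adjusted p = 0.000103) and at 0.14 ± 0.07 after knockdown (edgeR adjusted p = 0.136). PLXNA2, a class A plexin that partners neuropilins, had 44.6, 42.7 and 44.3 CPM with overexpression, 53 and 52.4 CPM after knockdown and 41.5, 36.6 and 39 CPM in control, with knockdown above overexpression and overexpression above control. It was 0.17 ± 0.06 higher with overexpression (edgeR adjusted p = 0.0302), a call lost without overexpression replicate 1 or control replicates 2 or 3 (adjusted p = 0.114, 0.182 and 0.0777), without the count filter (0.0512) and in DESeq2 (0.0639), and 0.43 ± 0.07 higher after knockdown (edgeR adjusted p = 3.06e-05).

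The proximal promoters of PLXND1 and SEMA5B are printed because these genes had the smallest adjusted p with overexpression among plexins and among semaphorins, and differ in composition. Both are RefSeq sequences on GRCh38.p14, from 250 bases before to 50 bases after the first listed start, 5′ to 3′ on the gene's strand, with each GC box (GGGCGG on either strand) in capitals. PLXND1 lies at chr3:129606627-129606926 on the minus strand, has 87.3% G and C, 52 CpG and 9 GC boxes. SEMA5B lies at chr3:123028556-123028855 on the minus strand, has 42% G and C, 7 CpG and no GC box in this window.
PLXND1: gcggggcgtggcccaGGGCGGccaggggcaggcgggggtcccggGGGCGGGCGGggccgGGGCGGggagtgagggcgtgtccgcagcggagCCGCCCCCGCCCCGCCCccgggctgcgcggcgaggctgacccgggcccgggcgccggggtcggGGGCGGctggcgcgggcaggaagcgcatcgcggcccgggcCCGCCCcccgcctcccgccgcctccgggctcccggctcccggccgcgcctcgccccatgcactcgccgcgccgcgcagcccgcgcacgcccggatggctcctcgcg
SEMA5B: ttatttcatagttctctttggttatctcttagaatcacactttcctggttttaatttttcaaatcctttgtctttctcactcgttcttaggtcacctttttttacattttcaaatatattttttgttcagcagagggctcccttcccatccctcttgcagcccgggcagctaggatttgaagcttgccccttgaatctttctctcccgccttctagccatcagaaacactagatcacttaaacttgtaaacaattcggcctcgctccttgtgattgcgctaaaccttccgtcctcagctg
Of the 72 members 61 had a promoter in the table, and 46 of these (75.4%) held a GC box, against 69.4% of 10399 tested genes' promoters and 44.6% of 27305 promoters in all. A GC box stood in 19 of 26 promoters of members higher with overexpression, 6 of 8 lower with it, 14 of 15 higher after knockdown and 5 of 7 lower after it. CCAAT was found on either strand in 34.4% of member promoters (36.6% of tested genes), TATAAA in 1, that of EFNB2, TGANTCA in 1, that of PLXNC1, and TGACGTCA in 2, those of EPHA2 and SEMA4C (1.64%, 1.64% and 3.28%, against 5.89%, 4.6% and 3.13% of tested genes). Such matches are a description of the letters and not of binding.

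In the SLIT and ROBO group, 3 of 6 tested genes rose and 1 fell with overexpression, and 2 fell and 0 rose after knockdown (edgeR, with 0 higher also at an unadjusted p under 0.05 and in DESeq2). With overexpression 50% were higher and 16.7% lower (25.2% and 24.1% of all tested genes), and after knockdown 0% and 33.3% (19.9% and 19.1%). SLIT3 had the largest log2 fold change of the 65 tested members with overexpression. It had 11.1, 12.4 and 9.66 CPM with overexpression, 3.58 and 4.52 CPM after knockdown and 4.39, 3.47 and 4.34 CPM in control, so that the overexpression libraries lay far above both other groups, which overlapped. SLIT3 was 2.76-fold higher with overexpression (log2 1.46 ± 0.13, edgeR adjusted p = 2.64e-08) and differed by -0.04 ± 0.17 after knockdown (edgeR adjusted p = 0.881). SLIT2, the abundant member, had 506, 471 and 510 CPM with overexpression, 418 and 435 CPM after knockdown and 466, 439 and 428 CPM in control. Its rise with overexpression was 0.16 ± 0.05 (edgeR adjusted p = 0.00824, 0.0684 without control replicate 3). SLIT2 and ROBO2 together restrict ureteric bud outgrowth in the mouse kidney. ROBO2 had 16.3, 17.1 and 15.3 CPM with overexpression, 11.3 and 15.7 CPM after knockdown and 19.1, 19.1 and 19.6 CPM in control, and every treated library lay below control. It fell by 0.55 on the log2 scale after knockdown (± 0.11, edgeR adjusted p = 0.000427, 0.0648 without knockdown replicate 2) and by 0.24 with overexpression (± 0.10, edgeR adjusted p = 0.0423). The overexpression call of ROBO2 was lost without overexpression replicates 1 or 3 or any 1 of the control replicates 1, 2 and 3 (adjusted p = 0.0916, 0.0602, 0.0896, 0.079 and 0.0926), in DESeq2 (0.0598) and with scaling by library totals (0.0989). The direct difference of 0.31 ± 0.11 in ROBO2 (edgeR adjusted p = 0.021) was lost without knockdown replicate 2 (0.727) and in DESeq2 (0.0541). ROBO3, which governs midline crossing, had 14.8, 14.8 and 11.8 CPM with overexpression, 10.1 and 11.3 CPM after knockdown and 13.1, 14.1 and 14.4 CPM in control, with the knockdown libraries lowest. It fell by 0.39 on the log2 scale after knockdown (± 0.11, edgeR adjusted p = 0.00639, 0.14 without knockdown replicate 2) and differed by 0.02 ± 0.09 with overexpression (edgeR adjusted p = 0.88).

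Among netrins and their receptors, 4 of 8 tested genes rose and 2 fell with overexpression, and 3 rose and 0 fell after knockdown (edgeR, with 0 lower also at an unadjusted p under 0.05 and in DESeq2). With overexpression 50% were higher and 25% lower (25.2% and 24.1% of all tested genes), and after knockdown 37.5% and 0% (19.9% and 19.1%). NTN4, a netrin of basement membranes, had 11, 11.1 and 10.1 CPM with overexpression, 6.28 and 7.07 CPM after knockdown and 5.23, 6.78 and 6.35 CPM in control. Its overexpression libraries stood apart (0.83 ± 0.11 over control, edgeR adjusted p = 4.09e-06), and knockdown differed from control by 0.12 ± 0.13 (edgeR adjusted p = 0.481). NTNG2, a lipid-anchored netrin that does not act through DCC, had 4.42, 4.39 and 3.68 CPM with overexpression, 3.01 and 3.35 CPM after knockdown and 1.68, 2.02 and 2.47 CPM in control, in descending order without overlap. It rose by 1.07 ± 0.17 with overexpression (edgeR adjusted p = 2.56e-05) and by 0.64 ± 0.19 after knockdown (edgeR adjusted p = 0.00946, 0.0647 without control replicate 1). NTNG2 was 0.42 ± 0.16 higher with overexpression than after knockdown (edgeR adjusted p = 0.0295). That direct call was lost without overexpression replicates 1 or 2 (adjusted p = 0.0953 and 0.066) and in DESeq2 (0.142). NTN1, the founding chemoattractant, moved down with overexpression, with 57, 56.4 and 52.9 CPM against 72.7, 63 and 70.7 CPM in control (-0.31 ± 0.06, edgeR adjusted p = 0.00026). After knockdown NTN1 had 67.8 and 67.5 CPM, within the range of control (-0.02 ± 0.06, edgeR adjusted p = 0.798).

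NEO1, a receptor of netrins and of repulsive guidance molecules, had 161, 148 and 158 CPM with overexpression, 216 and 220 CPM after knockdown and 164, 153 and 151 CPM in control. Only the knockdown libraries stood apart, 0.48 ± 0.05 above control (edgeR adjusted p = 8.83e-07), and overexpression differed from control by -0.01 ± 0.05 (edgeR adjusted p = 0.926). UNC5B, a netrin receptor with roles in vessels, had 121, 126 and 114 CPM with overexpression, 112 and 117 CPM after knockdown and 90.7, 98.3 and 101 CPM in control, where both treatments lay above control. The changes of UNC5B were 0.32 ± 0.05 with overexpression (edgeR adjusted p = 5.42e-05) and 0.25 ± 0.06 after knockdown (edgeR adjusted p = 0.00219), and the treatments differed by 0.07 (edgeR adjusted p = 0.314, 0.0314 with scaling by library totals). UNC5A was higher with overexpression by 0.55 ± 0.19 (edgeR adjusted p = 0.023), a call lost without overexpression replicate 2 or control replicates 1 or 3 (0.08, 0.134 and 0.0701), and UNC5C lower (-0.24 ± 0.07, edgeR adjusted p = 0.0063, 0.0537 without control replicate 2).

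MOV10 works in microRNA regulation, so 3′ UTRs were read for 8-base seed sites, the complement of miRNA bases 2 to 8 followed by A. The longest annotated 3′ UTR of 64 tested members was used (median 2373 bases, against 1647 bases for 12791 tested genes). Mature sequences of 3 of the 8 families searched are given from RefSeq (GRCh38.p14), seed in capitals, for the sites printed below. Members described above also hold sites of the other families.
let-7a: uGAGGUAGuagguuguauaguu
miR-16: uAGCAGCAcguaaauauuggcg
miR-103a: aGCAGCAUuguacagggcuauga
Sites for let-7 (CTACCTCA) stood in 7 members (10.9%, against 5.09% of all 3′ UTRs), of which 5 were higher and 2 lower with overexpression, and 2 were higher and 1 lower after knockdown. Of the 651 tested genes with this site, 30.1% were higher and 26% lower with overexpression, and 19.8% and 20.1% after knockdown. Below, the site is in capitals within 30 bases of the transcript, 5′ to 3′ (GRCh38, GENCODE 29), first for the 5 members higher with overexpression and then for the 2 lower.
PLXND1: ctgcagcccagaaactCTACCTCAtccaca
PLXNC1: gtataatatttctaagCTACCTCActgagg
SEMA4C: tttgcacaggcaccagCTACCTCAgggaca
SEMA4G: agctcctacccctgtcCTACCTCAccgggg
NRP2: gatttcaagaagtgtcCTACCTCAgctgaa
NTN1: aaatgacgagacgtagCTACCTCAcggggc
SEMA4F: gtggggataataaaacCTACCTCAgggttg
PLXND1 and PLXNC1, both with a let-7 site, moved in opposite directions after knockdown, as given above. Sites for miR-16 (TGCTGCTA) stood in 9 members (14.1%, against 5.29%), with overexpression 5 of them higher and 1 lower, and after knockdown 5 higher and the other 4 not called. Of the 677 tested genes with the miR-16 site, 28.8% were higher and 20.2% lower with overexpression, and 21.4% and 22.7% after knockdown. Sites for miR-103 (ATGCTGCA), which share TGCTGC with those of miR-16, stood in 9 members (14.1%, against 5.33%), with overexpression 4 higher and 3 lower, and after knockdown 3 lower and the other 6 not called. Of the 682 tested genes with the miR-103 site, 25.1% were higher and 25.7% lower with overexpression, and 22% and 20.2% after knockdown. The members with each site are few, and the difference between the miR-16 and miR-103 members was not tested. SEMA6D holds both sites. The 3 lower miR-103 members are PLXNB1, ROBO2 and SEMA3A. PLXNB1 stood at -0.24 ± 0.09 (edgeR adjusted p = 0.0369), a call lost without control replicate 3 (0.165). Without knockdown replicate 2, ROBO2 and SEMA3A stood at -0.3 and -0.28, against -0.55 and -0.34 in the main fit. Examples called after knockdown are NEO1, EPHA7 and UNC5B, each higher, for miR-16, and ROBO2 and SEMA3A, each lower, for miR-103. Of these, NEO1 also held miR-19 and miR-92 sites, EPHA7 a miR-17 site and SEMA3A a miR-30 site.
NEO1: gatggagaccctttccTGCTGCTAttattg
EPHA7: cagtatatgcatagaaTGCTGCTAgaagac
UNC5B: tgaacagagagtacttTGCTGCTAacgaat
ROBO2: cttgcactcataggcaATGCTGCAatgcaa
SEMA3A: aattcatggccaagcaATGCTGCAggtgtg
The other families gave miR-30 sites (TGTTTACA) in 10 members (15.6%, against 9.48%), miR-17 sites (GCACTTTA) in 7 (10.9%, against 5.68%), miR-19 sites (TTTGCACA) in 6 (9.38%, against 7.58%), miR-21 sites (ATAAGCTA) in 3 (4.69%, against 2.98%) and a miR-92 site (GTGCAATA) in 1 (1.56%, against 3.97%). With overexpression 7 miR-30 members were higher and 2 lower, and 2 miR-17 members higher and 4 lower. For miR-19 these counts were 4 and 0, and for miR-21 2 and 1. After knockdown they were 3 and 2 for miR-30, 2 and 0 for miR-17 and 4 and 1 for miR-19. The miR-21 members gave 1 and 1, and the miR-92 member was higher only after knockdown. Of all tested genes with these sites, 28.3% to 35.6% were higher and 19.7% to 23.7% lower with overexpression. After knockdown the shares were 18.1% to 23% and 22.2% to 24.3%. A match is not a measured site. The 34 members with any of the 8 sites had longer 3′ UTRs (median 3265.5 bases, against 1583 bases in the 30 without one), and the part of length in the shares above was not tested. With overexpression 19 of the 34 were higher and 8 lower, and 12 of the 30 were higher and 3 lower (25.2% and 24.1% of all tested genes). After knockdown 11 of the 34 were higher and 5 lower, and 7 of the 30 were higher and 3 lower (19.9% and 19.1% of all tested genes). Whether members with and without a site differ was not tested.

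Beyond the ligands and receptors, the co-receptors, further cues and modifiers on a separate list also leaned upward with overexpression, and the intracellular effectors did not. Of 22 tested co-receptors, cues and modifiers, 15 were higher and 2 lower with overexpression (68.2% and 9.09%, against 25.2% and 24.1% of all tested genes, median 0.25). After knockdown 6 of them were higher and 1 lower (27.3% and 4.55%, against 19.9% and 19.1%, median 0.14). Of 61 tested effectors, 16 were higher and 17 lower with overexpression (26.2% and 27.9%, near the 25.2% and 24.1% of all tested genes, median -0.06). After knockdown 8 effectors were higher and 22 lower (13.1% and 36.1%, against 19.9% and 19.1%, median -0.08). Among the first list, GPC1, a heparan sulphate proteoglycan that binds SLITs, had 28.8, 32.1 and 25.6 CPM with overexpression, 42.7 and 41.2 CPM after knockdown and 25.9, 23.9 and 24 CPM in control. Its knockdown libraries stood well above the rest (0.77 ± 0.08, edgeR adjusted p = 3.27e-07). The smaller rise of GPC1 with overexpression (0.24 ± 0.08, edgeR adjusted p = 0.0155) was lost without overexpression replicate 2 or control replicates 2 or 3 (0.0971, 0.0665 and 0.0578). EXT1, which builds the heparan sulphate chains that SLITs and netrins bind, had 82.4, 84.8 and 85.1 CPM with overexpression, 108 and 102 CPM after knockdown and 77.8, 74.5 and 76.5 CPM in control. It was 0.46 ± 0.05 higher after knockdown (edgeR adjusted p = 1.79e-06) and 0.14 ± 0.05 higher with overexpression (edgeR adjusted p = 0.0275), the second lost without overexpression replicate 1 or control replicates 2 or 3 (0.0512, 0.117 and 0.0704) or without the count filter (0.0617). CNTN1, a cell adhesion molecule of axons, and FLRT3, a ligand of UNC5 receptors, rose with overexpression by 0.52 ± 0.07 and 0.53 ± 0.08 (edgeR adjusted p = 8.88e-06 and 2.1e-05). After knockdown CNTN1 stood at -0.06 (edgeR adjusted p = 0.592) and FLRT3 at 0.21 ± 0.09 (edgeR adjusted p = 0.0653, 0.0462 without overexpression replicate 3 and 0.044 in a fit of these groups alone).

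The effectors with the smallest adjusted p included the collapsin response mediators DPYSL2 and DPYSL5, which act on microtubules downstream of semaphorins. DPYSL5 had 81.4, 84.3 and 73 CPM with overexpression, 84.1 and 86.7 CPM after knockdown and 119, 120 and 126 CPM in control, and every treated library lay below every control library. It fell by 0.61 on the log2 scale with overexpression and by 0.51 after knockdown (± 0.06 each, edgeR adjusted p = 4.21e-08 and 2.01e-06). DPYSL2 likewise had 40.8, 42.3 and 40.3 CPM with overexpression, 34 and 32.5 CPM after knockdown and 58.1, 60.3 and 56.3 CPM in control. ABL2, a cytoskeletal tyrosine kinase, had 121, 106 and 118 CPM with overexpression, 70.3 and 75.8 CPM after knockdown and 66.8, 71.6 and 72.5 CPM in control. Its overexpression libraries lay apart (0.71 ± 0.06, edgeR adjusted p = 9.29e-09), and knockdown differed from control by 0.05 (edgeR adjusted p = 0.546). PITPNA, a lipid transfer protein that binds netrin receptors in the mouse, had 81, 80.4 and 79.2 CPM with overexpression, 117 and 116 CPM after knockdown and 116, 114 and 114 CPM in control. It fell with overexpression (-0.51 ± 0.05, edgeR adjusted p = 5.08e-08) and differed by 0.02 after knockdown (edgeR adjusted p = 0.794).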

How the data were processed

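The deposited values are whole-number read counts per gene symbol in 1 table of 8 libraries, made by the authors. The tools were HTSeq 0.5.3p9, TopHat2 2.0.8, SAMtools 0.1.18, Trimmomatic 0.22 and CASAVA 1.8.2 with build hg19, which the submitters' processing notes list without roles or order, and the labels' protocols give Trizol extraction and a stranded TruSeq kit. The strand setting of the counting and its handling of reads with several matches are not known from the sources used, so antisense and near-identical genes may share reads.

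From these counts, edgeR 4.0.16 (R 4.3.3) was fitted to all 8 libraries together with its quasi-likelihood test, TMM scaling and filterByExpr defaults (minimum count 10, total 15), which kept 15254 of 23368 symbols, and p-values were adjusted by Benjamini-Hochberg over all of them. Of the symbols, 3620 had no read. The standard error of a log2 fold change is its size over the root of F. CPM use TMM-scaled totals, and CPM per kb divides by the exon length of GENCODE 29. Self-tests were run on simulated counts whose levels and spread were taken from these data. Alternatives were DESeq2 1.42.0, limma-voom (limma 3.58.1), other scalings, filters and thresholds, a replicate block and leaving out each library. Given with the value in every library were members called in both comparisons with control and up to 3 per family with the smallest adjusted p. So were up to 8 members called in the direct comparison whose log2 fold changes against control differed in sign, called or not. Up to 4 genes of each further list were added. EFNA3, EFNB3, SEMA7A, NTN1, SLIT2, EPHA4, NRP2 and other members named outside this rule were chosen after their values were seen. Members and lists were chosen with earlier results of these data known. Libraries of 1 group differed by more than sampling noise (chi-square per gene 1.87 to 8.01), so none was merged. The total counts of 12737889 to 32826936 reads set the precision of low genes, and errors cover the spread between libraries.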

Additional observations from a re-analysis of the deposited data

How the results depend on the processing

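Across the genes named and all alternatives, 1995 results were recomputed, of which 131 lost a call and 15 gained one. The sign differed from the main one in 14, none of them called in either fit and all with a main log2 fold change of at most 0.06 in size. With scaling by library totals, 6 members were lower with overexpression and 13 after knockdown. Without the count filter 13 were lower after knockdown, and with only the 2 groups compared 15 were (3003 and 3583 of all tested genes, against 2907). At an adjusted p under 0.01, 3 were lower with overexpression and 5 after knockdown (2719 and 1912 of all tested genes). Against a fold of 1.2 (edgeR glmTreat), 13 were higher and 0 lower with overexpression (0 lower also at an unadjusted p under 0.05), 7 and 2 after knockdown, and 14 and 4 for overexpression against knockdown, beside 1491 and 859, 722 and 978, and 2475 and 1522 of all tested genes. Leaving out 1 library at a time gave 24 to 31 higher and 5 to 11 lower with overexpression, 13 to 19 higher and 1 to 14 lower after knockdown, and 17 to 28 higher and 11 to 16 lower in the direct comparison. Over all tested genes the overexpression counts in these fits were 3142 to 3974 higher and 2964 to 3874 lower. Where an overexpression or control library was left out, 14 to 19 members were higher and 6 to 14 lower after knockdown. Of all tested genes 2420 to 3749 and 2308 to 3484 were, and in the direct comparison 3998 to 4607 and 3818 to 4541. Where knockdown replicate 2 or 3 was left out, the lone knockdown library was taken to vary like the other groups. The cause of these shifts was not tested. DESeq2 gave 27 and 9, 18 and 6, and 24 and 14, and limma-voom 31 and 11, 18 and 9, and 26 and 14. Of all tested genes DESeq2 gave 3196 and 3411, 2644 and 2329, and 3739 and 4048. The same counts from limma-voom were 3806 and 3686, 3066 and 2923, and 4465 and 4345.

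Libraries of different groups with the same replicate number had deviations with correlations of -0.08 to 0.09 over 7 pairs. Pairs with different numbers gave -0.09 to 0.1 over 14 pairs. Deviations from the mean of so few libraries are tied to each other, so this cannot show whether libraries shared a batch. With the replicate number as a block, 31 members were higher and 9 lower with overexpression, 16 and 7 after knockdown, and 26 and 14 in the direct comparison. Of all tested genes these counts were 3649 and 3468, 2612 and 2557, and 4123 and 3953. Adjusted p under the block was 0.0597 and 0.0946 for EFNA5 with overexpression and after knockdown, 0.0589 for ROBO2 and 0.0514 for EXT1 with overexpression, and 0.0618 for EPHA2 and 0.0622 for SEMA4C after knockdown. With at most 3 libraries per group, small differences of low genes such as NTN3 and PLXNB3 were not detectable.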
